A study of Mus musculus with 6 samples.

Results

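The step from brown preadipocyte to early differentiation was followed in cells that had received no growth factor, as the difference between 1 library at day 0 and 1 library at day 3. Of the 26264 genes in the count tables, 13087 averaged 20 or more normalized counts over this pair of libraries and are described here, and 13177 lay below that level. The nearest genes at that limit were C030037D09Rik, with a mean of 20.02, and Tnfrsf19, with a mean of 19.98. A normalized count is the deposited number of reads on a gene divided by a size factor for the library, taken by the median-of-ratios method over the 6 libraries of the series. The cells were immortalized brown preadipocytes from the stromal vascular fraction of interscapular brown fat (iBAT) of wild-type Bl6N mice, made immortal with a retrovirus for the SV40 large T antigen. Of the 6 libraries, 3 came from untreated cells, which received vehicle, and 3 from cells pretreated with 5.5 nM FGF8, a fibroblast growth factor, for 48 h, with 1 library each at day 0, day 3 and day 9. Day 0 is the end of that pretreatment period. Day 3 cells of both arms had then spent 2 days in an induction cocktail of insulin, triiodothyronine, IBMX, dexamethasone, indomethacin and rosiglitazone, and 1 day in a medium with insulin, triiodothyronine and rosiglitazone. Day 9 cells had spent 7 days in the second medium and carry the label D7. The day 0 and day 3 libraries of untreated cells held 16403254 and 19468173 reads on genes. With 1 library a side there is no replicate, no test and no p-value. A fold is given with the 95% exact binomial interval of the ratio of counts, which covers counting error and not the spread between cultures. Time, medium, confluence and drugs all changed together between both days and cannot be told apart.

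A committed preadipocyte is a fibroblast-like cell that expresses surface markers such as Pdgfra and Cd34 and a matrix rich in collagen. A glucocorticoid, a cAMP-raising agent and insulin start a relay of transcription factors in which Cebpb and Cebpd come first and switch on Pparg and Cebpa. These in turn drive the genes that take up, make and package fat. Brown adipocytes add many mitochondria and the uncoupling protein Ucp1, which burns the fat as heat, and rosiglitazone is a direct ligand of the Pparg protein.

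Both day 0 libraries, untreated and FGF8-pretreated, also stood apart from the other 4 libraries in some genes that are not known as part of that program. Xist, the RNA that coats the silenced X chromosome, stood at 3716 and 7473 normalized counts in the untreated and FGF8 libraries of day 0 and between 7.02 and 21.1 in the 4 later ones. The 4 Y-linked genes Ddx3y, Eif2s3y, Kdm5d and Uty lay between 845 and 3890 in all 6 libraries. Ifi202b, an interferon-inducible gene whose expression is known to differ between inbred strains, stood in untreated cells at 15439 normalized counts on day 0 and at 0 on day 3. In all, 26 genes had at least 50 normalized counts in both day 0 libraries and under 5 in each of the other 4, and 113 genes showed the reverse. Genes of the fat cell program are among these, such as Cidec, Plin1, Adipoq and Cfd in the second set, and Zic1, a marker of brown fat, is in the first, so the counts do not measure a difference apart from differentiation. Both sets were picked with their values in view. The imprinted growth regulator H19 stood at 13433 at day 0 and 43.3 at day 3, and Nnt, a mitochondrial transhydrogenase, at 3073 and 543. Of 28 measured Hox genes, which carry body position, 9 were at least 2-fold higher and 7 at least 2-fold lower at day 3, where 19.5% and 15.5% of all genes were, for example Hoxa9 at 5.88 and 206 and Hoxb9 at 2472 and 477 normalized counts. Whether the day 0 libraries came from the same cells as the later ones was not tested, and day and source cannot be told apart in any value below.

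A further difference followed the number of near-identical copies of a gene. A gene was counted as copied when its transcript matched other places of the GRCm39 genome at 95% identity or more over at least 20% of its length, and 957 of the 12560 genes with a value were copied. Among genes without a copy the median log2 difference between day 3 and day 0 was -0.06, with 1 copy it was 0.29, and with over 10 copies it was 1.72. The FGF8 pair showed medians of -0.08, 0.34 and 2.14 in the same classes, while untreated day 9 against day 3 gave -0.07, 0.05 and -0.12. Gapdh, the glycolytic enzyme with 45 such copies, stood at 134 and 174 normalized counts at day 0 and between 2419 and 11063 in the 4 later libraries. Rpl29, a ribosomal protein, stood at 7.34 and 3569 in the untreated pair. How reads with several matches were counted is not given in the sources used here, and the part of the copies in the differences was not tested. Lists in which copied genes are frequent are therefore also given without them, and members without a copy value are kept in.

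**Figure D1:**
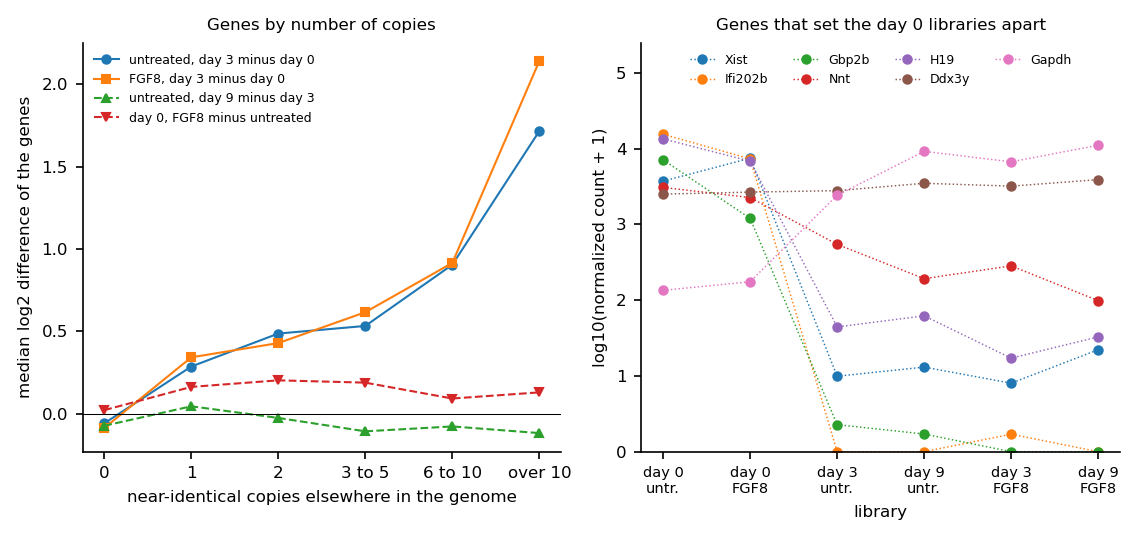
The left panel plots the median log2 difference of measured genes against their number of near-identical copies for 4 pairs of libraries, and the lines that cross from day 0 to day 3 climb step by step, from -0.06 to 1.72 in untreated cells and from -0.08 to 2.14 in the FGF8 pair. The right panel plots log10(normalized count + 1) of 7 genes in the 6 libraries (untr., untreated), each point 1 library, with Xist, Ifi202b, Gbp2b, Nnt and H19 high and Gapdh low in both day 0 libraries.

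Between day 0 and day 3, 2549 of the 13087 genes were at least 2-fold higher (19.5%) and 2023 at least 2-fold lower (15.5%), while 8515 stayed within 2-fold. The counting interval excluded equality for 2545 of the higher and 2020 of the lower genes. A difference of at least 16-fold was seen for 353 genes upward and 155 downward. Without the copied genes, 18.6% of 12130 genes were higher and 16.2% were lower, with 527 genes that have no copy value kept in. Among the 11603 genes found to have no copy, 18.2% were higher and 16.2% lower. When the libraries were scaled to Tbp, Hsp90ab1 and Gtf2b, the reference genes of the study's qPCR, all genes moved up by 0.79 on the log2 scale and the split became 5455 higher and 751 lower. All values below are on the median-of-ratios scale, on which these 3 genes were themselves lower at day 3, at 924 and 683 for Tbp, 49802 and 27455 for Hsp90ab1 and 1720.0 and 808 for Gtf2b.

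**Figure D2:**
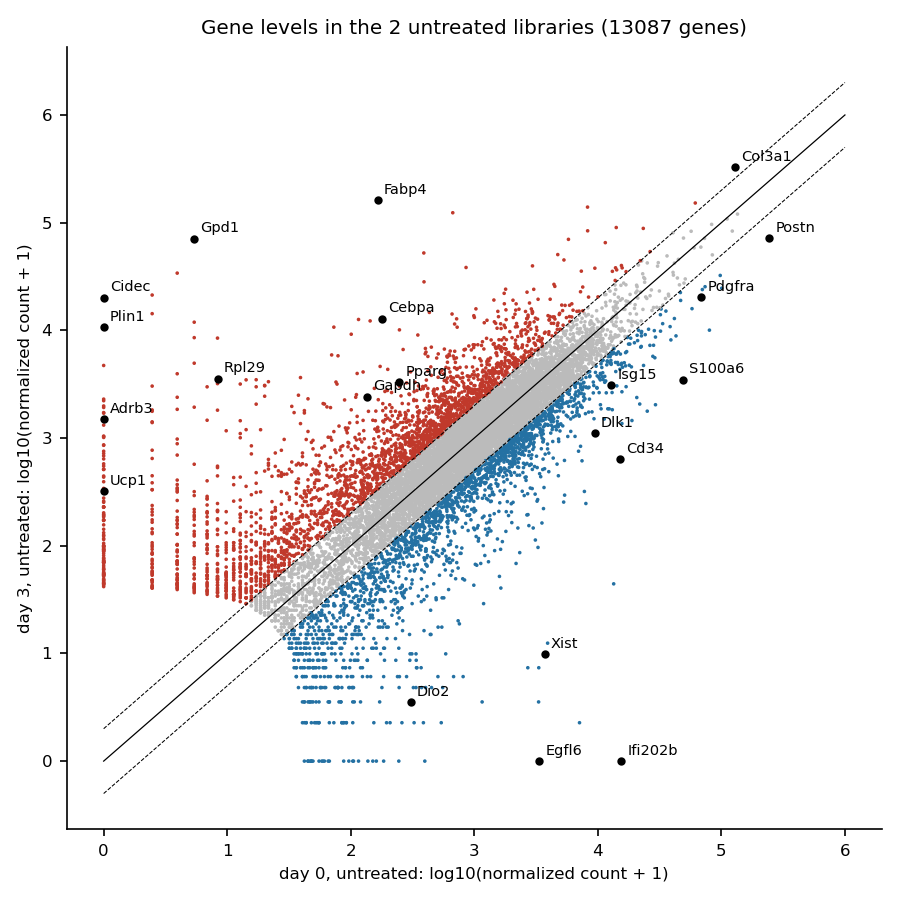
Each point is 1 of the 13087 genes, with log10(normalized count + 1) of the untreated day 0 library on the horizontal and of the untreated day 3 library on the vertical axis. Red points were at least 2-fold higher at day 3 (2549 genes), blue points at least 2-fold lower (2023 genes), the dashed lines mark 2-fold, and named genes are black.

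The largest increases in the whole pair were led by genes of fat storage. Cidec, which fuses lipid droplets into larger ones (chr6:113400691-113412721, GRCm39, minus strand), had no read at day 0 and 20110.3 normalized counts at day 3. That is at least 3711-fold higher by the interval, and 4564-fold with the day 0 level set to 3 counts. Gpd1, which makes the glycerol backbone of triglycerides (chr15:99615396-99622893, plus strand), went from 4.41 (3 reads) to 71055, a ratio of 16125 with an interval of 5517 to 78193. Plin1, the main coat protein of the adipocyte lipid droplet (chr7:79369966-79382718, minus strand), had no read at day 0 and 10762 at day 3, at least 1986-fold higher (2442-fold at 3 counts). Among the 15 largest increases were also Cd36, a fatty acid transporter, at 2.94 and 33993, and the hormone gene Adipoq at 1.47 and 21274. The others included Adig, the lipid droplet binding lectin Lgals12, Plin5, the adipsin gene Cfd, Car3, Thrsp, Paqr9 and Aldh3b2, together with the acute phase gene Saa3 and the glucocorticoid-induced transcription factor Zbtb16.

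Counted in normalized counts gained, the list was led by a collagen. Col3a1, the fibril-forming type III collagen, went from 129678 to 326050.2, a gain at a fold of only 2.51 (2.50 to 2.53). Fabp4, the fatty acid carrier of adipocytes (chr3:10268785-10273737, minus strand), came next, at 165 and 162482, 988-fold higher (821 to 1199.6). Lpl, which frees fatty acids from circulating triglycerides, stood at 8251 and 139484, and the complement gene C3 at 668 and 123612. Col1a1, Scd1, Fasn, Gpd1, the ATP synthase subunit Atp5b and Col4a1 completed the 10 largest gains, so fat, collagen and mitochondrial genes stood side by side.

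The largest losses in normalized counts came mostly from matrix and fibroblast genes. Postn, a matrix protein of remodelling tissue, went from 244198 to 72099, 3.39-fold lower (3.35 to 3.42). Lox, which cross-links collagen, went from 100629 to 24635, and Thbs2, an inhibitor of vessel growth, from 80007 to 10041. S100a6, a small calcium-binding protein, stood at 48889.6 and 3491, 14.0-fold lower (13.5 to 14.6). Fstl1, Rnf213, Pdgfra, Fbn1, Lgals1 and Fn1 completed the 10 largest losses, of which Fn1, at 122503 and 83538, stayed within 2-fold.

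By ratio, several of the 15 largest decreases were among the genes that set both day 0 libraries apart, namely Ifi202b, Gbp2b, Xist, H19, Ptchd1 and Mir6236. Egfl6, a secreted matrix protein of adipose stroma, had 3359 normalized counts at day 0, none at day 3 and 7.81 at day 9. With the day 3 level set to 3 counts it was 879.8-fold lower at day 3. Col14a1, a collagen of the fibril surface, stood at 3920.4 and 11.5, and Piezo2, a mechanically gated ion channel, at 3324 and 6.36. Crabp1, a retinoic acid carrier, stood at 2710.0 and 6.36. Slc14a1, a urea transporter, was at 397 and 0, and the matrix gene Cilp at 539 and 1.27.

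The transcription factors of terminal adipogenesis were higher at day 3 in 8 of 9 cases and lower in none, where 19.5% and 15.5% of all genes were. Their median log2 difference was 3.75 against -0.02 over all genes. Cebpa, which sustains the adipocyte state, went from 178 to 12872 normalized counts, 72.4-fold higher (60.5 to 87.4), and stood at 6538 at day 9. Pparg, the nuclear receptor that rosiglitazone binds, went from 245 to 3305, 13.5-fold higher (11.5 to 15.9), with 4838 at day 9. So Cebpa was higher at day 3 than at day 9 and Pparg was the other way round. The carbohydrate sensor Mlxipl had 2.94 and 3952, the sterol-sensing Srebf1 2597 and 14976, and the oxysterol receptor Nr1h3 63.2 and 1946. The retinoid receptor Rxrg had no read at day 0 and 339.8 at day 3. Thra, a thyroid hormone receptor, was the 1 member within 2-fold, at 3649 and 2849.6.

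Early factors split. Of 16 members, 7 were higher (43.8%) and 3 lower (18.8%), where 19.5% and 15.5% of all genes were, with a median of 0.55. Cebpb and Cebpd, the first factors of the relay, stood at 197 and 2767 and at 138 and 1769. At day 9 Cebpb was at 5280.4 and Cebpd at 522, so by then they had moved in opposite directions. Zfp423, which commits cells to the adipocyte lineage, went from 23.5 to 725, and Egr2, also called Krox20, from 254 to 2461. Klf15, Stat5a and Klf9 were the other higher members. Lower at day 3 were Klf5, at 115 and 16.5, the commitment signal Bmp4, at 110.2 and 14.0, and Klf6. Ebf1, Nr3c1, Klf4, Stat5b, Bhlhe40 and Zfp467 stayed within 2-fold.

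Factors that hold adipogenesis back did not form 1 group either. Of 20 listed genes 17 were measured, 4 higher and 5 lower, shares of 23.5% and 29.4% against 19.5% and 15.5% of all genes. Dlk1, also called Pref-1, the membrane protein that marks preadipocytes, went from 9414 to 1107, 8.50-fold lower (7.92 to 9.14). The Wnt ligands Wnt10b, at 119 and 6.36, and Wnt10a, at 44.1 and 0, and the repressors Gata2 and Runx1t1 were the other lower members. Hes1, a target of Notch, stood at 149.8 and 561, and Klf2, Sox9 and Tcf7l1 were also higher. Zfp521, which opposes Zfp423, was at 3292 and 1679 and within 2-fold.

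**Figure D3:**
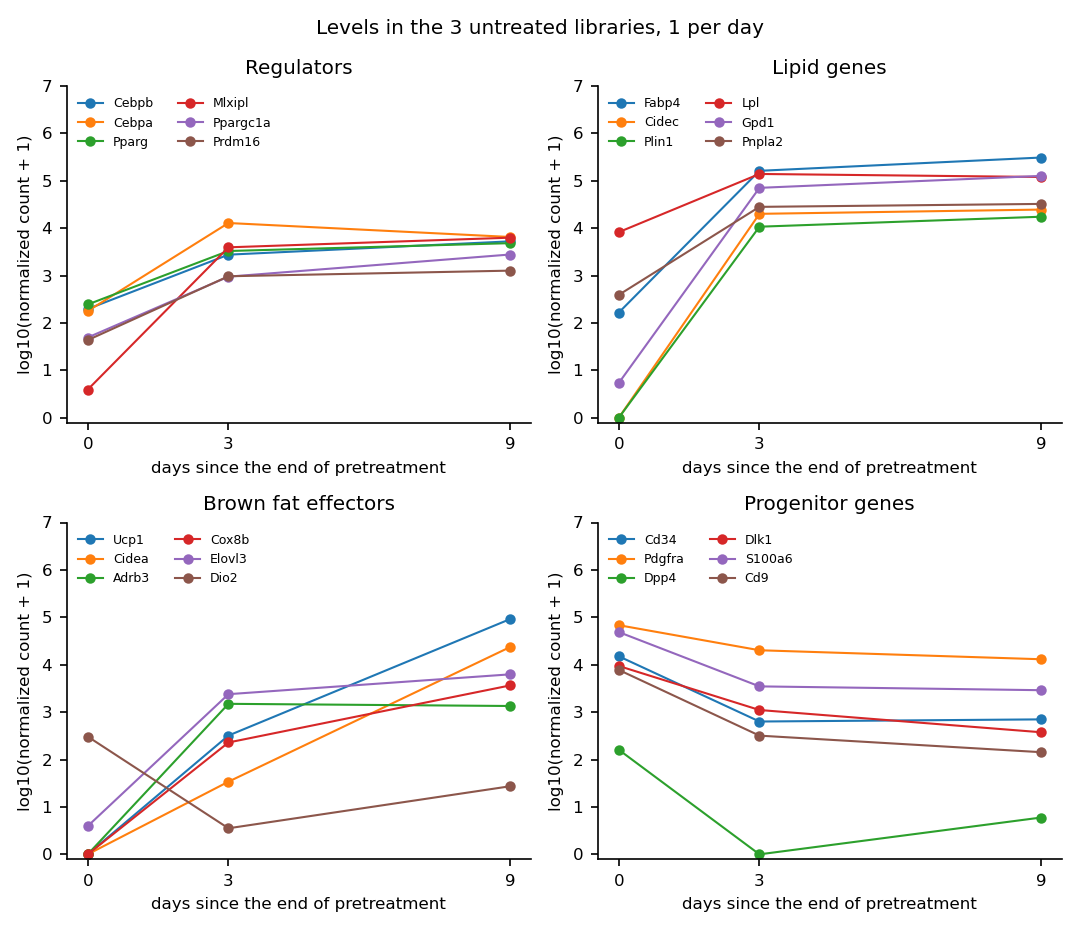
Log10(normalized count + 1) of 24 genes in the 3 untreated libraries at day 0, day 3 and day 9, 1 point per library and no replicate. The fat genes Fabp4 and Plin1 were at day 3 below, but within 2-fold of, their day 9 level. Cidea had most of its climb left after day 3, and Ucp1 climbed in both steps. The progenitor genes Cd34, Dlk1 and Cd9 were lower at day 3 than at day 0.

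Nearly all measured genes of the lipid droplet and of fat storage were higher. Of 29 listed, 27 were measured, 24 were higher (88.9%) and 2 lower (7.41%), where 19.5% and 15.5% of all genes were. Their median log2 difference was 4.08. Enzymes of successive steps of triglyceride assembly were among the higher genes. Acsl1, which activates fatty acids, stood at 389 and 52308, Gpam, the first acyltransferase, at 1528 and 10463, and Agpat2, the second, at 659.5 and 14178. The phosphatase Lpin1 was at 944 and 6576, and of the final acyltransferases Dgat1 was at 509.7 and 6040.3 and Dgat2 at 125 and 4106. Of the droplet coat genes, Plin4 stood at 115 and 12619, Plin5 at 0 and 1922 and Plin2 at 2654 and 12858, while Plin3, which most cells express, stayed at 2334 and 2226. Mogat2, of a separate acylation route, and Hilpda, an inhibitor of the lipase Pnpla2, were the lower members, at 104 and 3.82 and at 263 and 118.

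Genes that break fat down were higher along with those that build it. Of 16 lipolysis genes 14 were higher (87.5%) and none lower, where 19.5% and 15.5% of all genes were. Their median was 4.78, or 4.09 with the genes without a read at day 0 set to 3 counts. Among the lists this bound moved only the medians of lipolysis and of the thermogenic effectors. The triglyceride lipase Pnpla2 stood at 391 and 28214, 72.2-fold higher (64.0 to 81.8). The hormone-sensitive lipase Lipe stood at 142 and 12235 and Mgll, which completes the reaction, at 99.9 and 9204. G0s2, which inhibits Pnpla2, was at 72.0 and 10709, and its activator Abhd5 at 1663 and 6367. Among the receptors, Adrb3 had no read at day 0 and 1495 at day 3, at least 276-fold higher (339-fold at 3 counts). Adrb1 was at 2.94 and 66.2. The cyclase Adcy3, at 1736 and 963, stayed within 2-fold.

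De novo fatty acid synthesis moved less than storage. Of 18 genes 9 were higher (50%) and none lower, where 19.5% and 15.5% of all genes were. Their median was 1.20, and without copied genes 6 of 14 were higher with a median of 0.71. Fasn, the synthase, stood at 8267 and 84007, 10.2-fold higher (9.89 to 10.4), and Acacb, a carboxylase that makes its substrate, at 444 and 4577. Scd1, the desaturase, was at 14088 and 90113, and at 543655 at day 9. Acly, at 17482 and 18508, Scd2, Fads1, Fads2, Elovl1, Elovl5 and Elovl6 were within 2-fold. Genes of cholesterol synthesis and uptake were near their day 0 level, with 2 of 25 higher (8%), none lower and a median of 0.32. Those above 2-fold were Insig1, which retains the sterol sensor in the endoplasmic reticulum, at 1632 and 11505, and Lss at 2165 and 5387. Acat2 was just inside 2-fold at 2638 and 5258, on the log2 scale 0.99.

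Nearly all measured genes of mitochondrial fuel use were higher. In fatty acid oxidation 23 of 25 genes were higher (92%) and none lower, where 19.5% and 15.5% of all genes were. In the pyruvate dehydrogenase and tricarboxylic acid (TCA) cycle group 23 of 25 were higher, with a median of 2.04 in both groups. Without copied genes these were 19 and 20 of 21. Acadm and Acadl, which start the oxidation of medium and long chains, stood at 1749 and 17649 and at 2055 and 19045. Hadha, of the trifunctional enzyme, went from 4411 to 26732. Cpt1b, the muscle and brown fat form of the gate to the mitochondrion, had 1.47 and 73.8, while Cpt1a, the liver form, stayed at 3148 and 2735. Pcx, which refills the cycle with oxaloacetate, went from 856 to 38352, 44.8-fold higher (41.3 to 48.7). Citrate synthase, Cs, stood at 5314 and 45038. Idh2 did not differ by 2-fold, at 5151 and 5198.

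The respiratory chain followed at smaller folds. Of 76 measured subunits 45 were at least 2-fold higher (59.2%) and none lower, where 19.5% and 15.5% of all genes were. Their median was 1.27, and without copied genes 32 of 58 were higher with a median of 1.24. Atp5b, the catalytic subunit of ATP synthase, stood at 23319.6 and 88450.5, 3.79-fold higher (3.73 to 3.86), and Cyc1, of complex III, at 1488 and 11624. Of the subunit forms of muscle and brown fat, Cox8b had no read at day 0 and 228 at day 3, and Cox7a1 stood at 17.6 and 151. At day 9 these were at 3649 and 3751. Among the genes that make mitochondria, 11 of 22 were higher and none lower, and without copied genes 8 of 18. Polrmt, the mitochondrial RNA polymerase, stood at 248 and 1733 and the chaperone Hspa9 at 9458 and 37771, while Tfam, which packs mitochondrial DNA, was at 1697 and 2477 and Nrf1 at 953 and 948, both within 2-fold. Peroxisomal genes gave 15 higher and 1 lower of 29, led by Ehhadh, Pex16 at 206 and 2035 and catalase, Cat, at 2162 and 15411. Phyh, which degrades phytanic acid, was the lower one, at 1709.8 and 704.

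Brown fat regulators were higher in 10 of 18 measured genes (55.6%) and lower in 1 (5.56%), where 19.5% and 15.5% of all genes were. Ppargc1a, the coactivator of mitochondrial genes, stood at 48.5 and 951, its relative Ppargc1b at 38.2 and 3643, and Prdm16, the brown fate coregulator, at 42.6 and 969. The lipid-sensing receptor Ppara was at 19.1 and 2445 and the orphan receptor Esrra at 213 and 2647. Ebf2, which marks brown preadipocytes, was already at 2315 at day 0 and stood at 3412 at day 3. Zic1, a transcription factor of classical brown fat, went from 149.8 to 0 and was also among the 26 genes high in both day 0 libraries and almost absent later.

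The heat-making genes were on but not yet at their later level. Of 24 thermogenic effectors 20 were measured, 16 higher (80%) and 2 lower (10%), where 19.5% and 15.5% of all genes were. Their median was 4.32, or 3.92 with unread genes set to 3 counts. Ucp1 (chr8:84016647-84025085, plus strand) had no read at day 0, 319 normalized counts at day 3, at least 58.5-fold higher (72.5-fold at 3 counts), and 91306 at day 9. Cidea, a lipid droplet protein of brown fat, was at 0, 33.1 and 23469.9 on the same 3 days and fell short of the mean of 20 in the pair. Elovl3, which makes very long fatty acids, was at 2.94, 2390.2 and 6257, and the potassium channel Kcnk3 at 2.94, 1847 and 4472. Adrb3 in contrast stood at 1346 at day 9, near its day 3 level. Dio2, the deiodinase that makes triiodothyronine inside the cell, was at 304 at day 0, 2.55 at day 3 (2 reads) and 26.3 at day 9. Acot11, a thioesterase, was the other lower member, at 126 and 39.5.

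The drugs of the cocktail have known target genes, and these were counted as separate lists. Dexamethasone and IBMX were in the first medium only, so day 3 cells had spent 1 day without them. Whether a drug caused any of these differences was not tested. Of 27 glucocorticoid responsive genes 18 were higher (66.7%) and 1 lower (3.70%), where 19.5% and 15.5% of all genes were. Zbtb16 had no read at day 0, 2297 at day 3 and 542 at day 9, the clock gene Per1 stood at 514, 2386 and 1337, and Fkbp5, a chaperone of the receptor, at 2258, 4522 and 963. Sgk1, a kinase, did not follow, at 2300.2 and 1651. Of 15 triiodothyronine responsive genes 10 were higher (66.7%) and 1 lower (6.67%). Thrsp, a lipogenic protein, stood at 4.41 and 8555, the corepressor Hr at 7.34 and 547 and the receptor Thrb at 20.6 and 633. Immediate genes of cAMP signaling gave 10 higher (43.5%) and 3 lower (13.0%) of 23. Among the transcription factors of this list, Nr4a1 was higher at 83.7 and 339, Junb at 198 and 913 and Nr4a3 at 5.88 and 52.2, Fosl2 was lower at 6890.4 and 2453, and Fos, Fosb, Egr1, Nr4a2 and Crem were within 2-fold. Ppargc1a and Dio2 also stand in this list, and several genes stand in more than 1 of the drug lists. Members such as Cebpd, Angptl4, Ucp1 and Kcnk3 stand as well in the adipogenic, lipolysis or thermogenic lists above.

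Progenitor and stromal markers formed the group with the lowest median. Of 30 measured genes 18 were lower (60%) and 3 higher (10%), where 15.5% and 19.5% of all genes were, with a median of -1.43. Cd34, a surface protein of adipose progenitors, went from 15084 to 633, 23.8-fold lower (21.8 to 26.1), and the tetraspanin Cd9 from 7782 to 318. Dpp4, a peptidase of early interstitial progenitors, was at 160.1 and 0, and Pi16, of the same cells, at 69.0 and 11.5. Pdgfra, the receptor that defines the lineage, went from 68261 to 20193, and Ly6a, also called Sca-1, from 28641 to 9937, so both were still abundant at day 3. Pdgfrb and Thy1 stayed within 2-fold, and Cspg4, also called NG2, stood at 286 and 1107, Twist2 at 380.4 and 989 and the cytokine Il33 at 88.1 and 389. In RNA of a whole culture fewer progenitor cells and less RNA per cell cannot be told apart.

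Genes of the interstitial matrix moved in both directions. Of 55 genes 21 were lower (38.2%) and 11 higher (20%), where 15.5% and 19.5% of all genes were. Their median of -0.55 turned to 0.24 when scaled to the qPCR reference genes. Besides Postn, Lox and Thbs2, lower genes were the elastic fibre component Fbn2, at 6977 and 753, the protease inhibitor Timp3, at 15658 and 1363, the proteoglycan Vcan, at 39013 and 8149, and tenascin, Tnc. Higher were Col1a1, at 61456 and 152232, Col3a1, Col5a1 and Col5a3, at 1939 and 9721, Col6a2, elastin, Eln, at 472 and 2745, and Loxl1, which cross-links it. Col1a2, the partner chain of Col1a1, stayed at 134974 and 120140.0, and so did Sparc, at 111357 and 108202. In the basement membrane 9 of 25 genes were higher (36%) and 3 lower (12%). The paired chains of type IV collagen led this list, Col4a1 at 5780.0 and 69985, 12.1-fold higher (11.7 to 12.5), and Col4a2 at 2957 and 39672. The other pair of chains measured was lower, Col4a5 at 4176 and 1745 and Col4a6 at 391 and 30.5, as was the laminin gene Lama2. Hspg2, or perlecan, was at 14205 and 36452.

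Genes of the contractile skeleton mostly stayed within 2-fold, and their list was close to all genes with 17.1% higher and 14.3% lower. Of 35 actin and contractile genes 5 were lower, among them Tpm1 at 15085 and 4350.2 and Cald1 at 21356 and 10006, and 6 were higher, among them Mylk and the smooth muscle myosin Myh11 at 16.2 and 379. The median of this list was -0.37 and turned to 0.42 when scaled to the qPCR reference genes. Of 26 SMAD and TGFb responsive genes 5 were higher (19.2%), 7 lower (26.9%) and 14 within 2-fold. Tgfbi, a secreted target, stood at 11260.3 and 1499, Ltbp1, which stores the latent ligand, at 7443 and 613, and its relative Ltbp2 at 367 and 2831. The inhibitory Smad6 was at 116 and 630.0.

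Cell division genes had medians below 0, and the shares that were at least 2-fold lower stand beside 15.5% of all genes. Of 60 DNA replication genes 9 were at least 2-fold lower (15%) and 4 higher, and of 79 mitosis genes 16 were lower (20.3%) and 2, both copied, higher. Their medians of -0.41 and -0.63 turned to 0.38 and 0.16 when scaled to the qPCR reference genes. Ckap2, a spindle protein, went from 4269 to 1196, 3.57-fold lower (3.31 to 3.84), Kif23, a motor of cytokinesis, from 2919 to 696, and Top2a, which untangles chromosomes, from 18154 to 7458. Mki67, the usual marker of cycling cells, stood at 15304 and 9870.0 and Cdk1, the mitotic kinase, at 5242 and 3156, so both remained expressed at day 3. The higher members of the replication list included Rrm2, of ribonucleotide reductase, at 1134 and 5204, E2f2 at 116 and 1087 and the cyclin Ccne1 at 541 and 1330.0. Among genes of cell cycle exit, 7 of 27 were higher (25.9%), among them the copied genes Btg1 and Ccnd3, and 2 lower, where 19.5% and 15.5% of all genes were. The inhibitor Cdkn1a, or p21, went from 1422 to 7434, 5.23-fold higher (4.88 to 5.60), and Ccnd1, the growth factor cyclin, from 849 to 283 and then 42.6 at day 9. Myc was higher, at 786 and 1929, and the locus of Cdkn2a, at 5879.9 and 4927, was within 2-fold. The cells carry the large T antigen, which binds the Rb and p53 proteins.

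Interferon stimulated genes were mostly lower at day 3, and with the progenitor markers they formed the 2 lists with a median at least 2-fold lower. Of 51 genes 31 were lower (60.8%) and 1 higher (1.96%), where 15.5% and 19.5% of all genes were, with a median of -1.11. Without copied genes 29 of 46 were lower, against 16.2% of all genes. Xaf1, an apoptosis adaptor, went from 25113 to 1775, 14.1-fold lower (13.4 to 14.9), Ifi44 from 20662 to 2377 and the ubiquitin-like Isg15, a copied gene, from 12847 to 3090.2. The RNA sensors Ddx58, or RIG-I, and Ifih1 stood at 16767 and 6207 and at 5698 and 2719. Not every member shared this. B2m, of the class I complex, stayed at 60107 and 58298, and Ifi27 was higher, at 2579 and 10128. In the FGF8 pair, which shares neither library with the untreated one, 14 of the 51 genes were higher, 3 lower and the median was 0.32, where 24.1% of all genes of that pair were higher and 22.0% lower. The summed level of the list was 595419 normalized counts in untreated cells and 141796 in FGF8-pretreated cells at day 0, and 310995 and 200602 at day 3, so the pairs started far apart.

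Inflammatory and secreted genes moved in both directions. Of 29 measured chemokine and cytokine genes 8 were higher (27.6%) and 10 lower (34.5%), where 19.5% and 15.5% of all genes were. Saa3, an acute phase protein, had 1 read at day 0 and 14286 normalized counts at day 3, while Cxcl10, an interferon-induced chemokine, went from 4824 to 928 and Tnfaip6 from 1362 to 136. Of 30 adipokine and secreted factor genes 19 were higher (63.3%) and 6 lower (20%). Besides Adipoq and Cfd these included Angptl4, an inhibitor of Lpl, at 401 and 6787, the vessel growth factor Vegfa at 978 and 7347, angiotensinogen, Agt, at 67.6 and 1917, and Lcn2 at 1.47 and 1770.4. Retn, or resistin, had no read at day 0, 1317 at day 3 and 353 at day 9. Apoe was lower, at 3039 and 823, as was osteopontin, Spp1, at 1714 and 300.4. Igf1 was level at 13226 and 13226.

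Genes of glucose uptake were higher more often than lower. Of 32 insulin signaling and glucose uptake genes 11 were higher (34.4%) and 4 lower (12.5%), where 19.5% and 15.5% of all genes were. Slc2a4, the insulin-regulated glucose transporter Glut4, went from 19.1 to 3055, 160.0-fold higher (93.4 to 301), and Tbc1d4, which controls its travel to the surface, from 99.9 to 1829. Irs2 stood at 402 and 3051 and the insulin receptor Insr at 1758 and 3743, while the Igf1r receptor was lower, at 2338 and 979, and Slc2a1, the basal transporter, was at 1345 and 837. In glycolysis 13 of 27 genes were higher and 3 lower, but without copied genes 7 and 3 of 19. Among those without a copy, the activator Pfkfb3 stood at 399.5 and 6054, the kinase Hk2 at 247 and 3032 and Pfkl at 1879 and 6073. Copies were frequent among cytosolic ribosomal proteins, in 64 of 75. Of the 75, 10 were higher (13.3%), all of them copied, and 14 lower (18.7%), near the shares of all genes. Over all copied genes 30.9% were higher. Of the 11 ribosomal genes not counted as copied none was higher and 6 were lower, with a median of -1.23.

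The amino acid and stress genes of ATF4 and the unfolded protein response gave 9 higher (30%) and none lower of 30. Over all genes 19.5% were higher and 15.5% lower. The cystine carrier Slc7a11 stood at 120.4 and 616, asparagine synthetase, Asns, at 1160.4 and 2979, and Atf3 at 47.0 and 197. The chaperones Hspa5, at 26464 and 20945, Hsp90b1 and Pdia4 were within 2-fold. In the FGF8 pair 2 of the 30 list genes were higher and 11 lower, where 24.1% and 22.0% of all genes of that pair were. The median was -0.70 there and 0.33 in untreated cells.

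**Figure D4:**
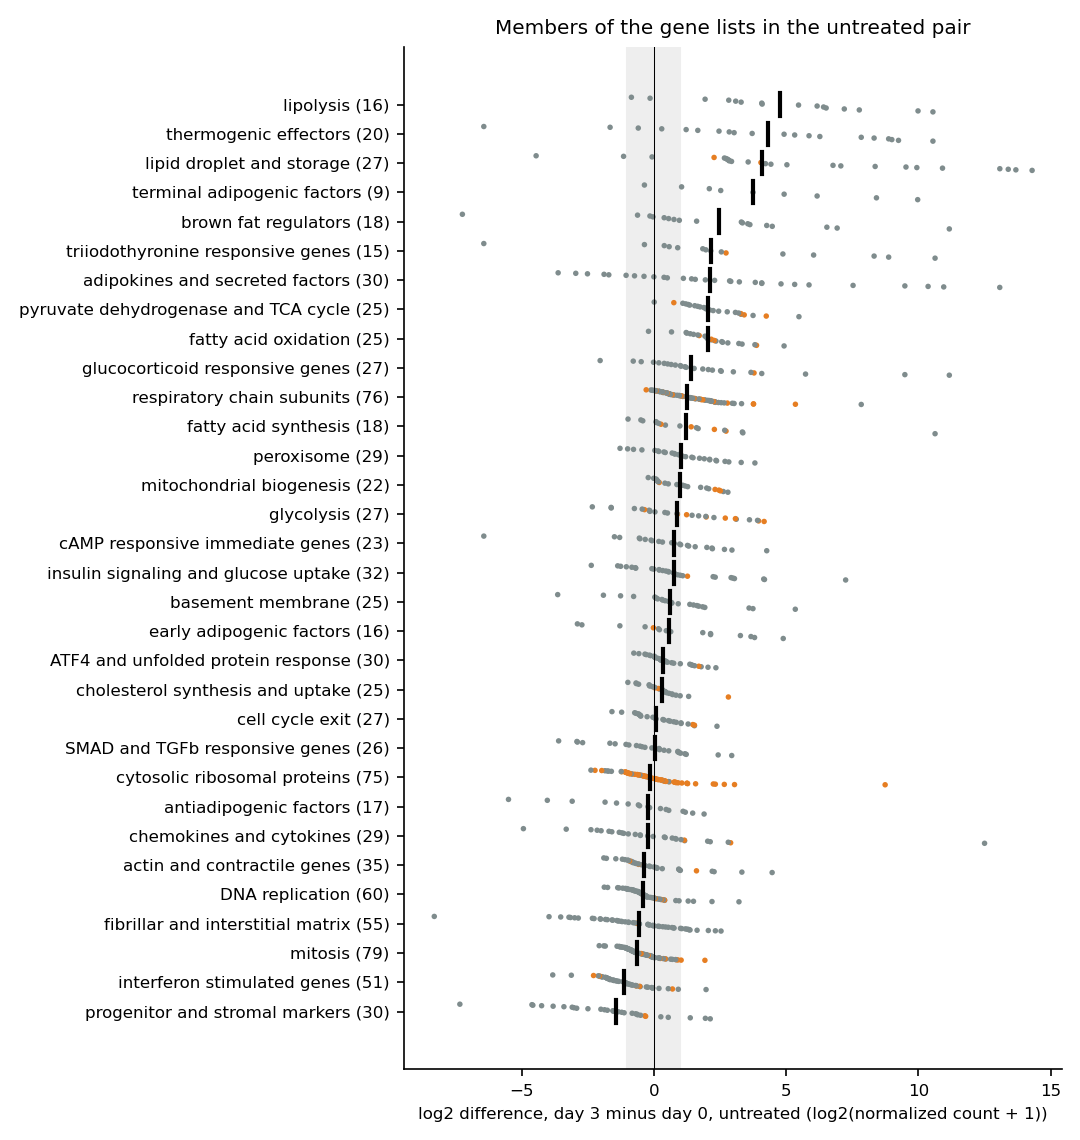
Each row is 1 of the 32 gene lists with its number of measured members, each point 1 gene at its log2 difference between day 3 and day 0 in untreated cells, orange for copied genes and grey for the others. The bar is the median of the list and the grey band marks 2-fold, which 13 list medians pass upward (lipolysis highest, 4.78) and 2 downward (progenitor markers lowest, -1.43).

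Markers of cell types were read against the labels. All 10 adipocyte markers were higher at day 3, with a summed level of 723 normalized counts at day 0 and 273338 at day 3. Preadipocyte and fibroblast markers were present at both days, with 6 of 10 lower and 2, Col1a1 and Col3a1, higher. The macrophage genes Adgre1, Ptprc, C1qa, C1qb, C1qc and Tyrobp had no read in either library of the pair, and the summed level of the 17 macrophage markers was 441 and 648 normalized counts. Of the 4 that were measured, Mertk was higher at 123 and 356 and Cd68 at 39.7 and 81.5, and Cd14 and Csf1r were within 2-fold. No lymphocyte or erythroid marker was measured. Of the endothelial markers Kdr, a receptor for Vegfa, stood at 1288 and 132 and Tek at 326 and 64.9, and the other 8 lay below the mean of 20. Smooth muscle and pericyte markers summed to 2563 and 7088, and of the 7 measured 4 were higher and none lower. Notch3 stood at 229 and 1773, while Acta2, at 1898 and 3669, Rgs5 and Cnn1 were within 2-fold. Actg2, at 29.4 and 6.36, lay below the mean of 20, and Kcnj8 and Abcc9 had at most 1 read in each library. The part of these cell types in the results was not tested.

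Levels can be compared between genes only per length, and for that each normalized count was divided by the kilobases of all exons of the gene. All annotated exons were joined, which can be longer than the transcript in use, so the ranks are approximate. On this scale the most abundant genes at day 0 were Lgals1, a galectin, at 34199.9 normalized counts per kilobase, B2m at 28541, Postn at 27886, Sparc at 26116 and Ifitm3 at 25378. At day 3 they were Fabp4 at 32805, Col3a1 at 31726, B2m at 27682, Sparc at 25376 and the lysosomal protein gene Psap at 25220.2. Fabp4 stood at 33.2 per kilobase at day 0. C3 and Gpd1 were also among the 10 most abundant genes of day 3, at 23849.5 and 22472 per kilobase. So on this scale the day 3 culture carried fibroblast matrix and fat genes side by side among its highest levels.

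Promoter sequences of 6 genes show the letters that are usual binding motifs of factors in the pathways above. They are the 250 bases before the start of each gene from RefSeq on the GRCm38.p6 build, and 10371 of the 13087 measured genes had an entry. Plin1 and Cidec have an entry without the motif, and Gpd1 and Fabp4 had no entry in the set used here. The first pair is from the lipid droplet list, with capitals at AGGTCA on either strand, the core site of nuclear receptors such as Pparg, which 7 of 21 genes of the list held against 15.8% of all 27025 genes with a promoter. Cd36 lies at chr5:17835897-17836146 on the minus strand and Plin5 at chr17:56117549-56117798 on the minus strand.
Cd36: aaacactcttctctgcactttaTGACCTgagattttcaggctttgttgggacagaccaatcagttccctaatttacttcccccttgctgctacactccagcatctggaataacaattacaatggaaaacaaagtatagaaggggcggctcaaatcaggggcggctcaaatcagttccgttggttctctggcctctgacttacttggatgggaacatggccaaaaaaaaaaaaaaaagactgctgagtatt
Plin5: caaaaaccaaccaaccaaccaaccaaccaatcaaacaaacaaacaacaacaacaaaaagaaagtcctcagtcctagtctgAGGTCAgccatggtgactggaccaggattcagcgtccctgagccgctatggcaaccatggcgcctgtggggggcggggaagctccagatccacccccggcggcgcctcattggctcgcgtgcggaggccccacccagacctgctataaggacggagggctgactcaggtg
Cd36 and Plin5 went from 2.94 to 33993 and from 0 to 1922 normalized counts. The next pair is from the interferon list, with capitals at GAAANNGAA on either strand, the core of the interferon response element, which 17 of 38 genes of the list held against 8.18% of all. Ifit3 lies at chr19:34583279-34583528 on the plus strand and Isg15 at chr4:156200819-156201068 on the minus strand, and overlapping matches in Isg15 form 1 run of capitals.
Ifit3: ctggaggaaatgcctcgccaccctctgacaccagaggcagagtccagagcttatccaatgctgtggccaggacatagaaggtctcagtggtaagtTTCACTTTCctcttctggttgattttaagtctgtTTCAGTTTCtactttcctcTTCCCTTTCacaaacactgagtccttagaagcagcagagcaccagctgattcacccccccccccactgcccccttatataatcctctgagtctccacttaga
Isg15: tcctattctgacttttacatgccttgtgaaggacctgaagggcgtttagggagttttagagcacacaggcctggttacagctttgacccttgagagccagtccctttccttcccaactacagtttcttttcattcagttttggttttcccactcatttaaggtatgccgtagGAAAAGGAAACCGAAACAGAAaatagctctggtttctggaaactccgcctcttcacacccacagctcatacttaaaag
Ifit3, which is also a copied gene, went from 27875 to 5740.0 normalized counts. The last pair is from the mitosis list, with capitals at TTTGAA on either strand, the cell cycle homology region bound by the complex that times late cell cycle genes, which 24 of 67 genes of the list held against 18.3% of all. Ckap2 lies at chr8:22185820-22186069 on the minus strand and Top2a at chr11:99024190-99024439 on the minus strand.
Ckap2: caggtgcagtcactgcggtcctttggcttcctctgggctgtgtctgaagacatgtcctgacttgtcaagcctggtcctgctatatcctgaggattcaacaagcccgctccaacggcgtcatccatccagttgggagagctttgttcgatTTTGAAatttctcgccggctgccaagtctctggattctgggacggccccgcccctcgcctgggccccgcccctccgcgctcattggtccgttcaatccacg
Top2a: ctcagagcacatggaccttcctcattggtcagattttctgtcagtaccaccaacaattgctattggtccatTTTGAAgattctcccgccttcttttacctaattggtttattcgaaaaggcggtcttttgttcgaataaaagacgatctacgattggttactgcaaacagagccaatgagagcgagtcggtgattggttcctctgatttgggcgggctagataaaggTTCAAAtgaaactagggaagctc
A second box of cell cycle promoters, CCAAT, stood in 47 of 67 mitosis genes, 30 of 50 DNA replication genes and 16 of 18 cholesterol genes with an entry, against 37.5% of all promoters and 41.0% of those of measured genes. GCGGGAA, a site of E2F factors, stood in 13 of 50 DNA replication genes and 3 of 67 mitosis genes, against 4.38% of all and 8.22% of measured genes. The string ATCACCC stood in 2 of 18 cholesterol genes (11.1%), against 2.62% of all and 2.21% of measured genes. TTTGAA was in 8 of 50 DNA replication genes (16%), against 18.3% of all and 12.7% of measured genes. AGGTCA was in 9 of 64 respiratory chain genes (14.1%), against 15.8% of all and 12.6% of measured genes. The longer AAGGTCA was in 1 of 21 lipid droplet genes (4.76%) and 5 of 64 respiratory chain genes (7.81%), against 4.70% of all and 3.40% of measured genes. Among all genes at least 2-fold higher at day 3, 14.9% held AGGTCA, and among those at least 2-fold lower 12.7%, against 12.6% of measured genes. Among the genes at least 2-fold lower 9.98% held GAAANNGAA, and among those at least 2-fold higher 7.08%, against 7.57% of measured genes. A match is a string of letters and not a shown binding site.

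The same interval in FGF8-pretreated cells, which shares no library with the untreated pair, was set beside it for the same genes. There 24.1% of 13013 measured genes were at least 2-fold higher and 22.0% at least 2-fold lower. Of the 2549 genes higher in untreated cells, 2103 were also at least 2-fold higher in the FGF8 pair (82.5%, or 67.0% of the genes higher there), 309 were within 2-fold, 32 were lower and 105 were not measured. Of the 2023 lower genes, 1496 were also lower (73.9%, or 52.1% of the genes lower there), 336 within 2-fold, 22 higher and 169 not measured. Across the 12689 genes measured in both pairs Pearson's r of the log2 differences was 0.877 and Spearman's rho 0.842, over genes and not over replicates, and both day 0 libraries share the features that set them apart. The terminal adipogenic factors stood at a median of 4.88 in the FGF8 pair and 3.75 in the untreated one. Cholesterol synthesis had 13 of 26 genes higher in the FGF8 pair and 2 in the untreated one, and the respiratory chain 70 and 45. None of these differences between the pairs has a replicate.

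**Figure D5:**
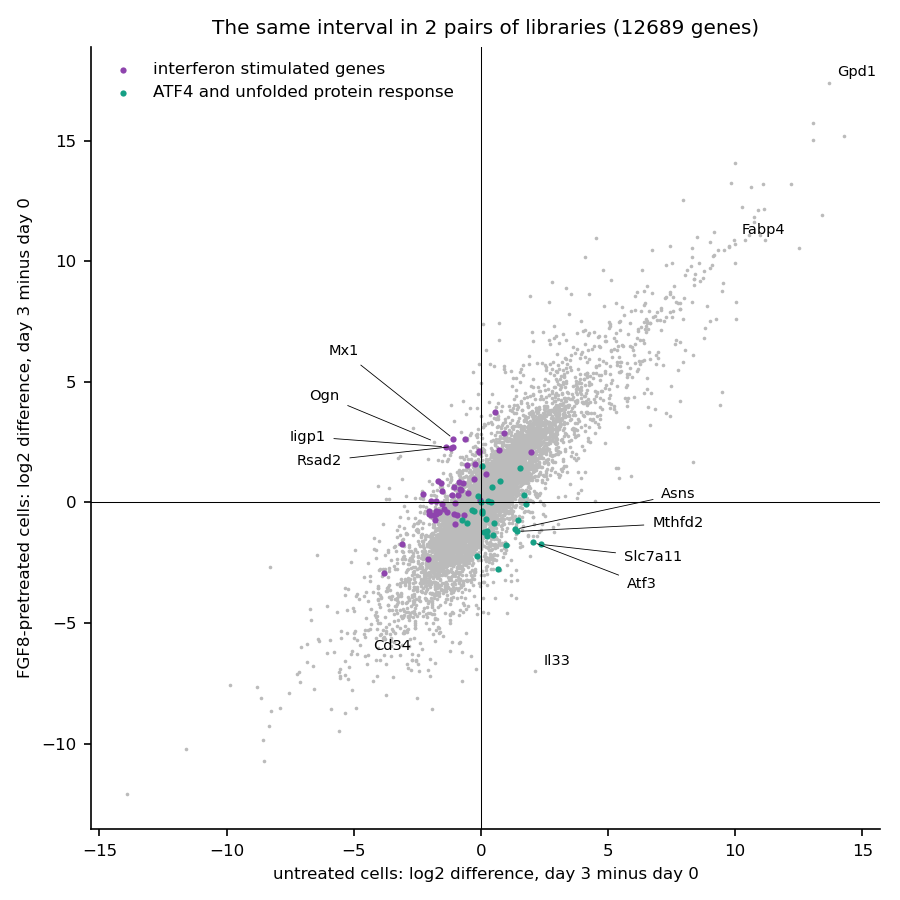
Each point is 1 of the 12689 genes measured in both pairs, with the log2 difference between day 3 and day 0 in untreated cells on the horizontal and in FGF8-pretreated cells on the vertical axis. Most genes lie along the rising diagonal (Pearson's r 0.877), while interferon stimulated genes (purple) lie mostly left of zero and around or above it, and ATF4 and unfolded protein response genes (green) mostly right of zero and below it.

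Day 3 was early for some genes and late for others, as the day 9 library of the same arm shows. It shares the day 3 library with the comparison, so both differences are only set side by side. Of the 2549 genes higher at day 3, 1472 stood still higher at day 9, 391 of them by at least another 2-fold, and 204 had come back by at least 2-fold. Of the 2023 lower genes 1150 stood still lower, 197 by at least 2-fold, and 223 had come back by at least 2-fold. Fabp4 was at 309617 at day 9, Gpd1 at 126889 and Cidec at 24731, all above their day 3 levels. Adipoq at 18265, Cfd at 533 and C3 at 92029.6 were below theirs. The secreted matrix stabilizer Itih5, which was 2011 at day 0 and 163 at day 3, was back at 3241, and decorin, Dcn, which was 25737 and 10242, at 26683. In normalized counts Ucp1, Cidea and Scd1 gained more after day 3 than before it. By ratio the 2 steps of Scd1 were close, 2.68 and 2.59 on the log2 scale, and Ucp1 and Cidea had no read at day 0, so only a lower bound exists for their first step.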

How the data were processed

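RNA of 6 cultures was sequenced with a stranded mRNA kit, 1 library per group. The authors trimmed reads with Trim Galore, aligned them to the mm39 genome with HISAT2 and counted them per gene with featureCounts, and they deposited raw counts. How reads with several matches were handled is not given in the sources used here. The growth protocol in the labels describes primary white preadipocytes, while titles and characteristics name immortalized brown ones, and the titles were followed. Library totals were 16403254 (untreated day 0) and 19468173 (untreated day 3) reads on genes and ranged up to 38551551.

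Each library's counts were scaled by its median-of-ratios size factor over the 6 libraries (DESeq2 1.42.0, R 4.3.3). A difference was taken on the log2(normalized count + 1) scale for genes averaging 20 or more, and 2-fold was the limit for calling a gene higher or lower. Intervals of a ratio are 95% Clopper-Pearson intervals of the binomial share (scipy 1.17.1) and cover counting error only. A gene without a read was also set to a floor of 3 counts per library, and the fold at that floor lies above the lower limit of its interval. No test was possible with 1 library a side. The calculation was tested on simulated data. Named genes were the 15 largest increases and decreases among genes averaging 100 or more, the 10 largest gains and losses in normalized counts, 5 genes each way at 0 in 1 library, and members of the lists. The members and the lists were chosen with earlier results of these data known. Near-identical copies were found with minimap2 2.31 against GRCm39, from 200 aligned bases at 95% identity. Promoters are from RefSeq (GRCm38.p6) and exon lengths and coordinates from Ensembl (GRCm39). Alternatives were other scalings (edgeR 4.0.16 for TMM), pseudocounts, filters and fold limits. A few list members are not reported here by name.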

Additional observations from a re-analysis of the deposited data

Results flagged for a closer look

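Among listed genes, 11 that averaged 100 or more normalized counts in each pair passed 2-fold in opposite directions between untreated and FGF8-pretreated cells. These differences between the pairs were not tested, since each pair has 1 library a side, and the values below are log2 differences between day 3 and day 0. Over all genes 54 were past 2-fold in opposite directions, 35 of them with that average in both pairs.

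Among these 11, genes of amino acid supply and stress were higher in untreated cells and lower in the FGF8 pair. Of all 30 genes in the ATF4 and unfolded protein response list, 9 were higher in untreated cells and 11 lower in the FGF8 pair. The cystine carrier Slc7a11 stood at 2.34 in untreated cells and -1.74 in the FGF8 pair, Atf3 at 2.05 and -1.65, and asparagine synthetase, Asns, at 1.36 and -1.11. The folate enzyme Mthfd2 stood at 1.41 and -1.21, and the pseudokinase Trib3 at 1.00 and -1.78. At day 0 the normalized counts of Asns were 1160.4 in untreated and 10988 in FGF8-pretreated cells, and at day 3 they were 2979 and 5081. The cytokine Il33 stood at 2.13 and -6.99, with 88.1 and 6194 normalized counts at day 0 and 389 and 47.7 at day 3.

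Antiviral genes among the 11 showed the reverse. Of all 51 interferon stimulated genes, 31 were lower in untreated cells and 14 higher in the FGF8 pair. The GTPase Mx1 stood at -1.09 in untreated cells and 2.64 in the FGF8 pair, Rsad2, or viperin, at -1.11 and 2.32, Iigp1 at -1.39 and 2.30, and the nucleotide kinase Cmpk2 at -1.18 and 2.27. Mx1 had 2243 and 74.3 normalized counts at day 0 and 1056 and 469 at day 3 in untreated and FGF8-pretreated cells. The matrix proteoglycan Ogn stood at -1.83 and 2.52, with 38443 and 476 normalized counts at day 0 and 10827 and 2738 at day 3.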

How the results depend on the processing

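With 2549 genes higher and 2023 lower, 9 of 12 alternatives kept the count of higher genes within 1.5 times and 8 of 12 that of lower genes. The exceptions were scaling to Tbp, Hsp90ab1 and Gtf2b, with 5455 higher and 751 lower genes, no filter on low counts, with 4729 and 3400, a 4-fold limit, with 1146 and 668, and a 1.5-fold limit, with 3543 lower genes. Scaling to the same 3 genes also moved the gene lists with a median at least 2-fold higher from 13 to 21 and those lower from 2 to 0, and shifted all genes by 0.79 on the log2 scale, beside 0.10 for TMM. The other scalings gave between 2461 and 2825 higher and between 1766 and 2187 lower genes. Of 521 named genes past 2-fold, 412 stayed past 2-fold under each of the 5 other scalings. Each scaling shifted all genes nearly alike, by 0.79 at most, so none of the 521 could change direction. Leaving out the genes with near-identical copies, an alternative chosen after seeing the data, gave 2253 higher and 1962 lower genes. No value changed sign among those past 2-fold, which shifts of 0.79 or less could not bring about. No paired analysis was possible because each group has 1 library and the labels carry no replicate numbers. No library could be left out, since each side of the comparison is 1 library. Sequencing depth limits genes with few reads: 113 measured genes had no read at day 0 and 27 none at day 3, and for them only a bound can be given. The spread between cultures is unknown for every gene.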

Other observations

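Histone genes, chosen after their values were seen, stood out among the increases. Of 30 measured histone genes 26 passed 2-fold upward and 1 downward at day 3, where 19.5% and 15.5% of all genes did. Their median log2 difference was 4.76, or 3.89 with the 10 genes without a read at day 0 set to 3 counts. Near-identical copies exist for 18 of the 30, and of all copied genes 30.9% were higher, or 62.7% of those with over 10 copies. The part of the copies in the histone differences was not tested. The replication histone H4c12 had no read at day 0 and 99.3 normalized counts at day 3, and H2bc15 had none and 47.1. H3f3a, a replacement histone with copies, stood at 571 and 6697, and H3f3b, which codes for the same protein, at 7061 and 7649. In the FGF8 pair 18 of these genes were also higher, where 24.1% of all genes of that pair were.

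A few genes differed between the day 0 libraries themselves and were chosen after seeing this. Rn7sk, a small nuclear RNA, had at day 0 554 normalized counts without and 35.8 with FGF8, and 3.82 and 2.81 at day 3. Lars2, a mitochondrial tRNA synthetase, had 13033 and 2416 at day 0 and 2645 and 3353 at day 3. Over the quartiles of exon length, from the shortest to the longest genes, the median log2 difference between day 3 and day 0 was 0.16, 0.06, -0.04 and -0.17 in untreated cells and 0.28, 0.02, -0.10 and -0.26 in the FGF8 pair, for the 97.2% of measured genes with a length.

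Among the Hox genes, Hoxd3, Hoxd4, Hoxd8 and Hoxd9 were all at least 2-fold lower at day 3, for example Hoxd8 at 1122 and 383 normalized counts, while Hoxc6 stood at 326 and 1319.8 and Hoxc9 at 82.3 and 291. Hoxb13 had no read at day 0 and 35.6 at day 3, and 1.28 and 81.4 in the FGF8 pair.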
